A study of Drosophila melanogaster with 4 samples.

Results

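The regions described here are the Hairy peaks at 3 genes for secreted signals of the Drosophila melanogaster embryo, wg, hh and dpp. Peaks were taken by position, as those whose midpoint lay in fixed windows on Release 5 of the genome. Their scores played no part in which peaks of a window were taken. The loci themselves were chosen with earlier results of these data known, which the tests below do not allow for. The wg window was 2L 7270001 to 7340000, the hh window 3R 18930001 to 18990000 and the dpp window 2L 2410001 to 2480000. Together they held 29 of the 8958 peaks in the deposited list (0.324%), with 9 peaks at wg, 14 at hh and 6 at dpp. The list stems from chromatin immunoprecipitation and sequencing (ChIP-seq) with 2 Hairy ChIP libraries and 2 input libraries, all from whole embryos. Every library came from the strain Y cn bw sp, with the sex given as unknown and no treatment named. Its labelled genotype has the marker alleles y[1], cn[1], bw[1] and sp[1], together with the alleles Gr22b[1], Gr22d[1], LysC[1], MstProx[1], GstD5[1] and Rh6[1], as well as oc[R3.2], lab[R4.2] and CG33964[R4.2]. Embryos carry the stage label 0 to 8 h, while the collection protocol speaks of an egg laying of 8 to 16 h, so their age is uncertain. The list gives each peak a start, an end and a score, but none for a single library, so replicate error cannot be given, depth is unknown, and ChIP was not compared with input here. The scale of the score is not named and scores were compared only within the list.

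Hairy is a basic helix-loop-helix repressor of the pair-rule class of segmentation genes, which sits between the gap genes and the segment polarity genes in the cascade that divides the embryo. wg encodes Wingless, a Wnt ligand, and hh encodes Hedgehog. Both are segment polarity genes, made by neighbouring rows of cells on the 2 sides of each parasegment boundary, where each signal helps to keep the other expressed. dpp encodes Decapentaplegic, a ligand of the bone morphogenetic protein family that patterns the dorsal side of the early embryo and is later used in tissues such as the gut and the imaginal discs. All 3 genes are known for control regions that spread over long stretches of flanking and intronic DNA. Whole-embryo chromatin mixes cells that express each gene with cells that do not.

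Other genes lie next to the named ones. In the Release 6 gene table, wg has Wnt6 and Wnt10, other Wnt ligand genes, on its side of rising coordinates beyond the long non-coding RNA gene lncRNA:CR45304, and CG31909 and then Wnt4, also a Wnt ligand gene, on the other side. The table places hh between CG31457 and unk, and dpp between lncRNA:CR44912 and a pair of tyrosine tRNA genes. Gene positions of Release 5 were not used here, so which of these genes fall inside a window was not checked, no peak was assigned to a gene, a promoter or an intron, and the sequence under the peaks was not used.

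The 3 loci differed in the number, width and score of their listed peaks, though no pair passed the test for a difference in density. Widths and scores were given no test. The hh window had many peaks of ordinary score, with a median width of 323 bp against 368 bp on 3R. Joining peaks within 500 bp of each other left 11 at hh, with a median width of 405 bp. The dpp window had the fewest peaks of the 3 loci, and 2 of these were wide and strong. The wg window lay between these in peak number and had the highest median score, 17.32, against 13.51 at hh and 13.48 at dpp. The 29 peaks scored from 6.63 to 37.28 with a median of 13.85, close to the median of 13.2 for the whole list. None was among the strongest 5% of the list, a group that starts at a score of 37.4, and the strongest dpp peak at 37.28 fell just short of it.

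**Figure D1:**
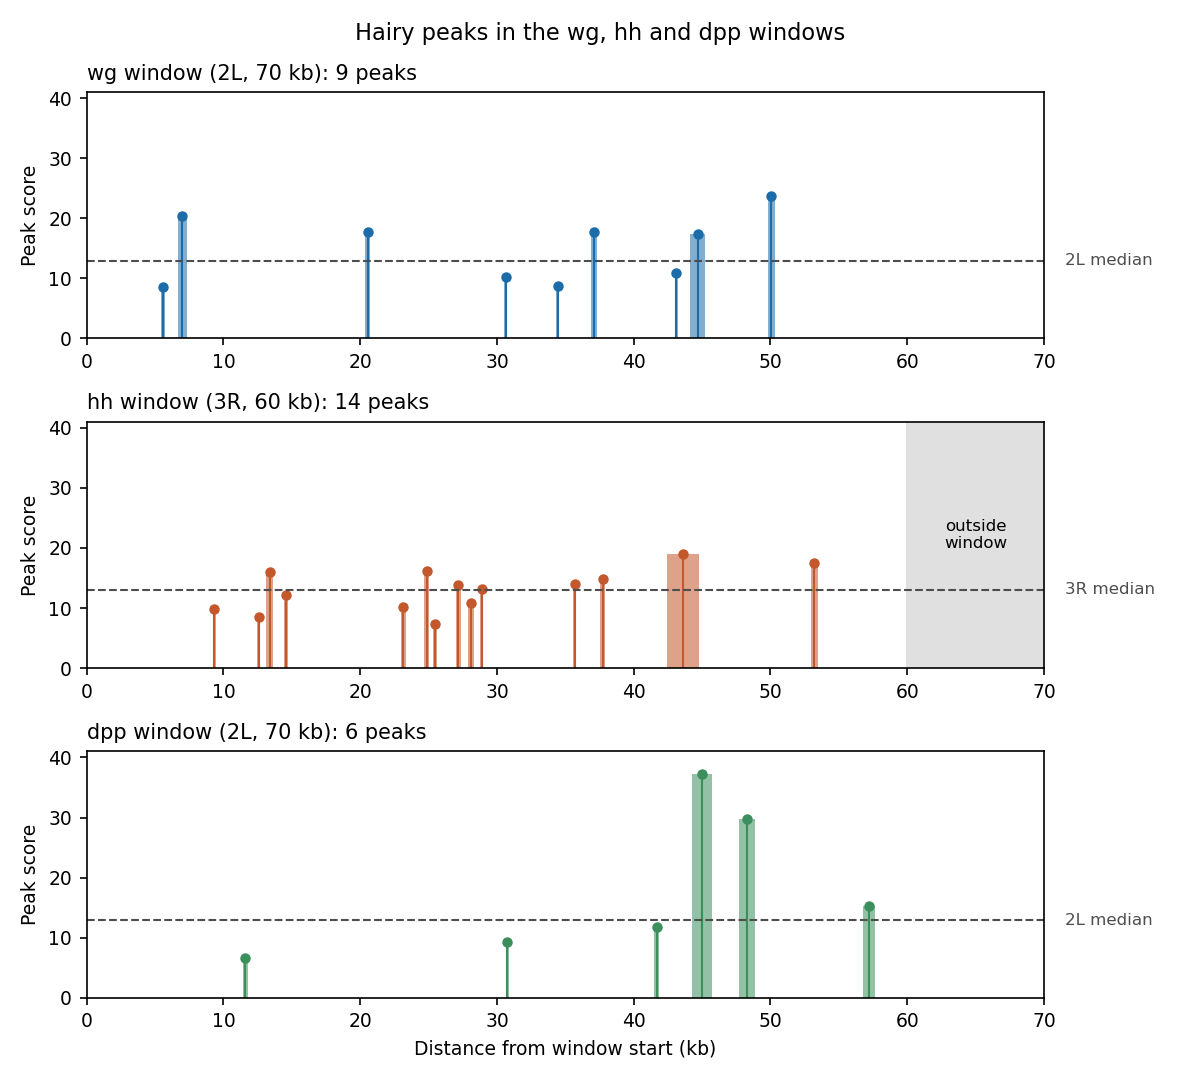
Hairy peaks in the wg, hh and dpp windows from top to bottom, with the distance from the window start in kb on the horizontal axis and the authors' peak score on the vertical axis. Bars span each peak from start to end, points mark midpoints, and dashed lines give the median score of the arm (12.9 on 2L, 13.0 on 3R). The 14 hh peaks stay at or below 18.98, while 2 neighbouring dpp peaks reach 37.28 and 29.69.

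At wg, 9 peaks were spread over 44.9 kb, and their scores fell into a higher and a lower group. The highest score, 23.76, belonged to the last peak, at 7319797 to 7320341 and 545 bp wide, and 89.2% of the other 2L peaks scored lower. The next was 20.36 at 7276685 to 7277328 (644 bp), near the opposite end of the window. These peaks lay apart, with 6 others between them. Peaks at 7290345 to 7290737 and 7306895 to 7307308 each scored 17.70. The widest peak, at 7314133 to 7315248 with 1116 bp, scored 17.32. These 5 peaks stood above 17.1, the upper quartile of the 2L scores. The other 4, at 7275458, 7300544, 7304316 and 7313010, scored 8.50, 10.15, 8.69 and 10.96 and were 201 to 254 bp wide, and 2 of them had the smallest width of the list, 201 bp. No wg peak scored between 10.96 and 17.32, a range that holds the 2L median of 12.9. This split was read from the 9 scores themselves and was not tested. Of 1449 other peaks on 2L, 459 scored below 10.96 and 354 above 17.32.

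Strong and weak peaks were interspersed along the wg window. The weak peak at 7275458 lay 973 bp before the peak of 20.36, and the weak peak at 7313010 lay 922 bp before the widest one. A stretch of 13.0 kb without a peak followed the pair at the low-coordinate end. The longest empty stretch, 19.7 kb, ran from 7320342 to the end of the window, directly after the strongest peak. The peaks covered 3997 bp, 5.71% of the window, against 3.11% of 2L as a whole.

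The wg window was denser in peaks than the rest of 2L, by a margin that did not pass the test. There were 12.9 peaks per 100 kb in the wg window and 6.29 on the rest of the arm, a ratio of 2.04 with an exact 95% interval of 0.93 to 3.89 (two-sided exact binomial test, p = 0.0484, adjusted p = 0.0726 over the 3 loci). With peaks within 500 bp of each other joined, which took none from wg and brought the rest of the arm to 1222, the ratio was 2.41 and adjusted p = 0.0221 by the same exact test. These tests treat neighbouring peaks as independent, which they are not, and cover counting error only. Of 324 other 2L windows of 70 kb, 15.4% held at least 9 peaks, 16.4% had at least as much of their sequence covered, and 32.1% had a peak scoring 23.76 or more. Among the 271 of those windows with a peak, 13.7% had a median score of 17.32 or more. The place of the wg median, taken anew under each setting, was unstable. It was 26.4% with windows 10 kb wider on each side and 49.3% among peaks at or above the list's median score. The share with as many peaks was 8.95% with peaks joined.

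At hh, 14 peaks lay within 44.3 kb, the densest set of the 3 loci. The strongest was also the widest. It spanned 2333 bp, from 18972424 to 18974756, and scored 18.98. It was followed by 17.41 at 18982934 to 18983497 (564 bp) and 16.23 at 18954664 to 18955047 (384 bp). Only the first of these passed 17.6, the upper quartile of the 3R scores, so 13 of the 14 hh peaks were below it. The other 11 scored from 7.34 to 16.00, and 8 of all 14 reached the 3R median of 13.0. The hh window held peaks from much of the lower and middle range of the arm and none from its upper end, where the strongest 3R peak scored 430.92.

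The hh peaks were unevenly spaced along the window. The first 4, from 18939220 to 18944726, scored 9.82, 8.48, 16.00 and 12.21. After 8.27 kb without a peak came 6 peaks within 6.02 kb, from 18952993 to 18959011, with scores of 10.15, 16.23, 7.34, 13.85, 10.83 and 13.17. This is the closest packing at the 3 loci, with the smallest gap, 295 bp, between the peaks scoring 16.23 and 7.34. The remaining 4 were farther apart, starting after 6.58 kb and with 8.18 kb before the last of them. At 18965592, 18967523, 18972424 and 18982934, they scored 14.06, 14.87, 18.98 and 17.41. Each of these 4 stood above the 3R median. In a count that was added once the positions were known, 3.25% of the 1971 peaks on 3R began a stretch of 10 kb with at least 6 peaks. The fullest such stretch at wg and at dpp held 3, a number reached by 36.4% of the peaks on 2L. These shares take every peak of the arm as a start, those of the loci included, whereas each locus is given by its fullest stretch. They therefore do not measure how rare such a stretch is. The median distance between midpoints to the nearest peak was 1.06 kb at hh and 1.94 kb over 3R.

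The hh window was denser in peaks than the rest of 3R. It held 23.3 peaks per 100 kb, against 7.06 on the rest of the arm, a ratio of 3.30 with an exact 95% interval of 1.80 to 5.56 (two-sided exact binomial test, p = 0.000142, adjusted p = 0.000426). Of 461 other 3R windows of 60 kb, 1.95% (9 windows) held 14 or more, with up to 22 in the fullest and a median of 3. When peaks below the median score of the list were left out, the hh window kept 7, and 4.34% of the windows held as many. With windows 10 kb wider on each side the hh window again held 14, and the share was 7.25%. The peaks covered 11.5% of the hh window and 3.59% of the arm, and 3.69% of the windows were covered as much (8.99% with the wider windows and 1.95% with peaks joined). Score did not follow number. A highest score of at least 18.98 was found in 44.7% of the 3R windows, and a median of at least 13.51 in 43.4% of the 387 windows with a peak. Among peaks at or above the list's median score, 69.6% of 313 windows reached the median of the 7 left at hh. The p treats neighbouring peaks as independent, whereas the share among windows does not, but that share is a description with no test.

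**Figure D2:**
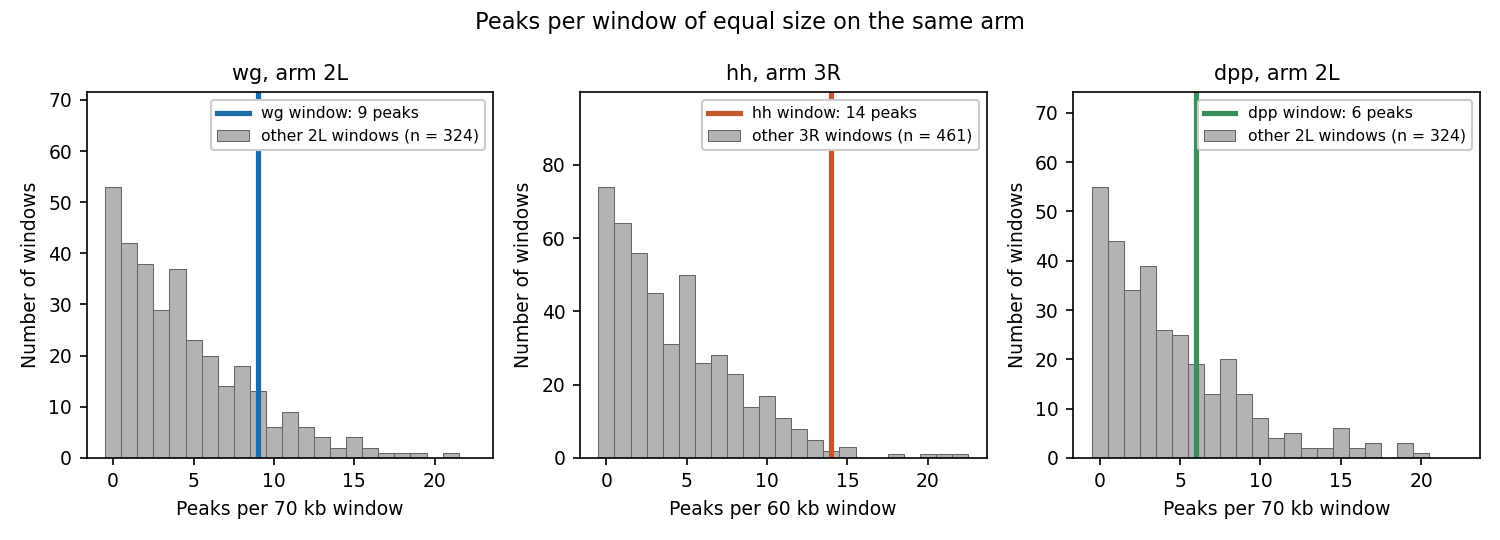
Number of windows (vertical axis) by peaks per window (horizontal axis) for complete adjacent windows of the same size on the same arm, with the wg, hh and dpp windows left out. Coloured lines mark the wg, hh and dpp windows at 9, 14 and 6 peaks. The hh line lies in the thin tail of the 461 windows of 3R, whereas the dpp line crosses the body of the 324 windows of 2L.

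At dpp, 6 peaks lay over 46.2 kb, and the window held both the strongest and the weakest peak of the 3 loci. The strongest scored 37.28 and spanned 1471 bp, from 2454277 to 2455747. Its neighbour at 2457714 to 2458841, after a gap of 1.97 kb, scored 29.69 with a width of 1128 bp. On 2L, 97.4% and 94.9% of the other peaks scored lower than these, and 97.7% and 94.7% were narrower. The weakest peak, at 2421433 to 2421777, scored 6.63, and of the other 1449 peaks on 2L a single one scored lower. Between these extremes were 15.24 at 2466749 to 2467641 (893 bp), 11.72 at 2451510 to 2451830 (321 bp) and 9.21 at 2440628 to 2440871 (244 bp).

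The dpp peaks gathered in the later part of the window. The 3 peaks from 2451510 to 2458841 lay within 7.33 kb and held the 2 strong ones. Towards lower coordinates, the peaks stood apart, with 10.6 kb and 18.9 kb without a peak before the group. The median distance between midpoints to the nearest peak was 6.13 kb at dpp, against 2.16 kb over 2L, and by this measure no dpp peak had another within 2 kb, whereas 47.6% of the 2L peaks did. Distances between midpoints are longer for wide peaks, and the edges of the 2 strong peaks were 1.97 kb apart.

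The density of peaks at dpp was not separated from that of the rest of 2L. There were 8.57 peaks per 100 kb in the dpp window and 6.31 on the rest of 2L, a ratio of 1.36 with an exact 95% interval of 0.50 to 2.96 (two-sided exact binomial test, p = 0.466, adjusted p = 0.466). At least 6 peaks were found in 31.2% of the 324 other windows of 70 kb, where the median was 3. With windows 10 kb narrower on each side the dpp window still held 6, and 19.8% of the windows had as many. With windows 10 kb wider on each side it held 10, and 18.3% had as many. The dpp window stood higher by strength and extent, with a peak scoring 37.28 or more in 10.5% of the windows and coverage of at least 6.29% in 13.9%. With the narrower windows, 8.57% reached the coverage of the dpp window at that size. A median score of 13.48 or more was found in 43.1% of the 269 windows with a peak. Counting only peaks at or above the list's median score left 3 at dpp, and 4.72% of 233 windows reached the median of those 3.

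Among the 3 loci themselves, no pair passed the test for a difference in peak density. The wg window had 0.55 times the density of the hh window (exact 95% interval 0.21 to 1.37, adjusted p = 0.313) and 1.50 times that of the dpp window (0.48 to 5.12, adjusted p = 0.607), by two-sided exact binomial tests adjusted over the 3 pairs. The hh window had 2.72 times the density of the dpp window (0.98 to 8.64, p = 0.0420, adjusted p = 0.126, the same exact test), and 1.57 times with all windows 10 kb wider on each side (adjusted p = 0.464, exact test). With 6 to 14 peaks per window these intervals are wide, and ratios well away from 1 lie within each of them. The order by number was hh, wg, dpp, and the order by highest score was dpp at 37.28, wg at 23.76 and hh at 18.98. The highest scores have no replicate error and were given no test.

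The setting of each window along its arm differed as well. The hh window held more peaks than each of the 5 windows of 60 kb on either side, which held 0 to 8. None of these 10 windows was covered as much, and 1 of them had a peak scoring above 18.98. The wg window held more than 8 of its 10 adjoining windows of 70 kb. The exceptions were the 2 farthest towards lower coordinates, with 17 and 15 peaks. A highest score of at least 23.76 was reached in 3 of the 10, and coverage as high in 2. The dpp window was like its surroundings in number, since 5 of its 10 adjoining windows held 6 or more, while 2 of the 10 had a peak scoring at least 37.28 and 2 had at least as much of their sequence covered.

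**Figure D3:**
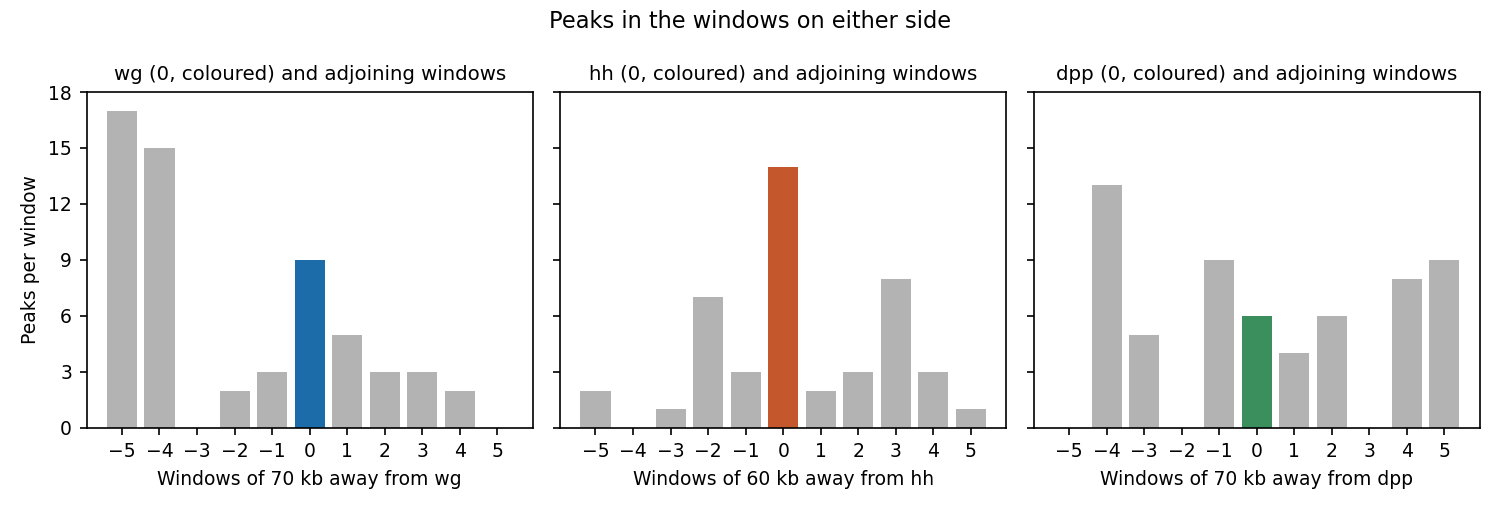
Peaks per window (vertical axis) in the wg, hh and dpp windows (position 0, coloured) and in the 5 adjoining windows of equal size on each side (grey), by distance in windows. The hh window with 14 peaks stands above all 10 of its neighbours (0 to 8), the wg window with 9 above 8 of 10, and the dpp window with 6 above 5 of 10.

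The widest peaks of the 3 loci differed in how they scored against peaks of the arm at least as wide. No peak in such a set is narrower than the locus peak, and how far score goes with width was not tested. The widest hh peak, 2333 bp, was wider than 99.2% of the other 3R peaks but scored higher than 79.4% of them. In a comparison that was added once the scores were known, the 16 other 3R peaks at least as wide scored 24.31 to 430.92 with a median of 51.4, all above its 18.98. At wg the order was less extreme. Of the 80 other 2L peaks at least as wide, 68 scored above its 17.32 and 12 below. The widest dpp peak went the other way, since 28 of the 33 other 2L peaks at least as wide scored below its 37.28 and 5 above. Peaks of 1000 bp or more numbered 1 of 9 at wg, 1 of 14 at hh and 2 of 6 at dpp, against 7.10% of all peaks on 2L and 8.63% on 3R. Median widths were 393 bp at wg, 323 bp at hh and 619 bp at dpp, against 382 bp on 2L and 368 bp on 3R.

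**Figure D4:**
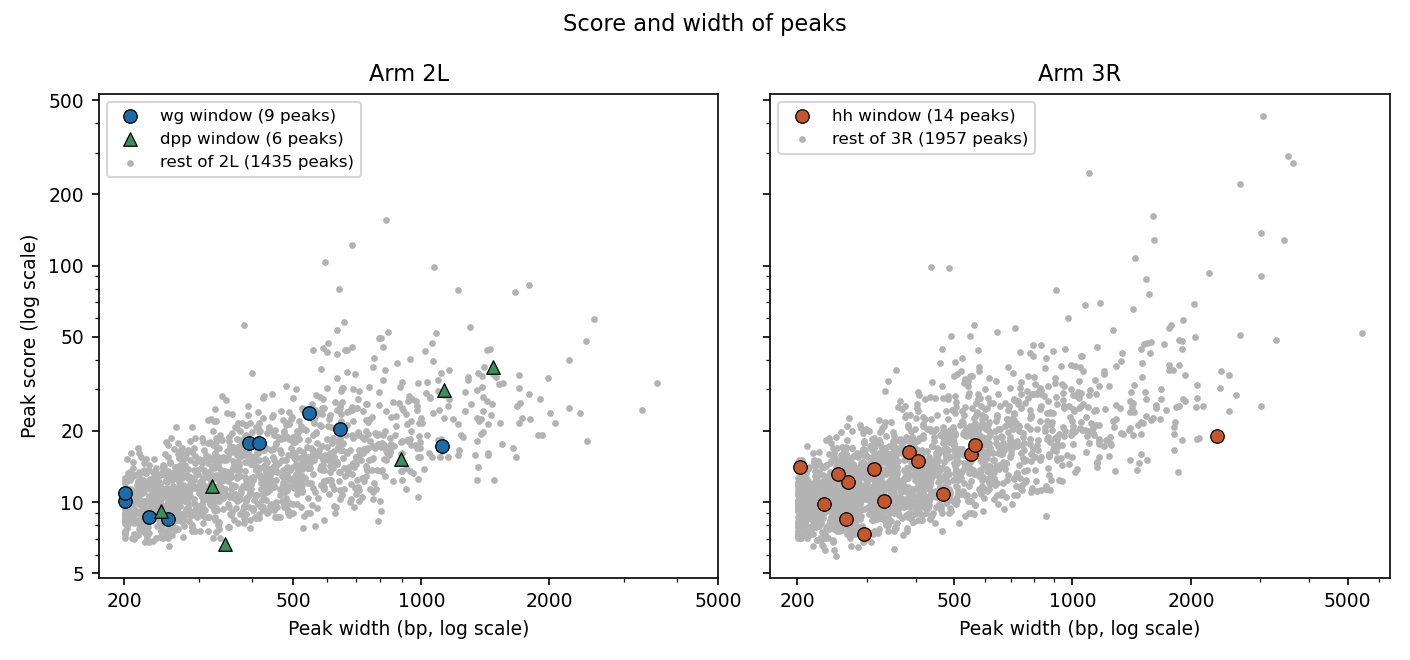
Peak score against peak width in bp, both on log scales, for peaks of the wg and dpp windows over the rest of 2L (left) and of the hh window over the rest of 3R (right), 1 point per peak. The widest hh peak, 2333 bp with a score of 18.98, lies at the lower edge of the 3R peaks of its width. The 2 strong dpp peaks lie among the widest and highest-scoring of 2L.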

How the data were processed

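Per the file headers, the deposited list uses FlyBase release 5 coordinates and names MACS as the source of its peaks. The submitters' processing notes name the build BDGP5 and the tools BWA, MACS2 and CASAVA (versions 1.7.0.2 and 1.7.0.3). The sources used here do not give their order, the threshold, the control, the pooling of replicates or the treatment of duplicate reads. Such steps set which regions appear in the list and where 1 region is cut into several. The score is the authors' deposited value, on a scale the list does not name. Starts and ends are other values deposited by the authors, 1-based.

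Peaks were assigned to windows by midpoint. Comparison windows were complete adjacent windows of equal size in phase with each locus, without those overlapping the 3 loci, and an arm was taken to end with its last peak. Peak numbers were compared with two-sided exact binomial tests given the lengths, with Benjamini-Hochberg adjustment over the 3 loci or the 3 pairs. The exact conditional 95% intervals were equal-tailed, whereas the p counted all outcomes no more likely than the one seen. An interval can therefore include equal densities while the unadjusted p is below 0.05, as for wg over the rest of 2L and hh over dpp. The tests were tried first on simulated peaks placed independently of each other, so the trial does not cover dependence between neighbouring peaks. The text names the 3 highest-scoring peaks and the widest peak of each locus in full and accounts for all others. The members and lists were chosen with earlier results of these data known. A planned count of peaks near other pathway genes and a planned motif search were not run, because they need genes and sequence placed on Release 5. The software was scipy 1.17.1, pandas 2.3.3 and numpy 2.4.6 under Python 3.11.15, with plots from matplotlib 3.10.9.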

Additional observations from a re-analysis of the deposited data

How the results depend on the processing

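No paired analysis was possible because the list carries no value per library, and no replicate could be left out for the same reason. Of 144 values under the alternatives, 119 kept their direction and side of the threshold or moved by less than their interval or spread. Overlap in place of midpoint, the first to last peak as arm length, and windows laid out of phase with the locus or every 10 kb moved none. The hh density ran from 2.48 to 4.25 times that of the rest of 3R (highest adjusted p = 0.0161, exact binomial tests). Each of these tests treats neighbouring peaks as independent, so the alternatives do not cover dependence between peaks. The wg density over the rest of 2L passed the threshold only with peaks within 500 bp joined (2.41 times). The wg over dpp ratio was 1.00 and the hh over dpp ratio 1.57 with windows 10 kb wider on each side.

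The places among windows of equal size moved more. The value of each locus was taken anew under each setting, so the value to be reached could change with it. Joining peaks gave 8.95% of windows with as many peaks as wg, 18.5% with its median score, 1.95% with the coverage of hh and 50.2% with the median score of dpp. Peaks at or above the list's median score gave 4.34% for the number at hh and 49.3%, 69.6% and 4.72% for the median scores at wg, hh and dpp. Windows 10 kb narrower on each side gave 24.4% and 19.5% for the highest and median score at wg, 34.7% for the highest score at hh, and 19.8%, 8.57% and 7.25% for number, coverage and highest score at dpp. Windows 10 kb wider gave 21.4% and 26.4% for coverage and median score at wg, 7.25%, 8.99%, 53.9% and 37.8% for number, coverage, highest and median score at hh, and 18.3% for the number at dpp. Windows with a peak alone gave 38.4% and 53.2% for the highest scores at wg and hh and 37.5% for the number at dpp. The cause of these shifts was not tested. The unknown depth limits every statement on weak or missing peaks.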
